A study of Homo sapiens with 6 samples.

Results

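The baseline expression profile of HCT-8 cells was described from the 3 arrays labelled Control-shRNA, of 6 arrays in the series. HCT-8 is an established line from a human adenocarcinoma of the ileocaecal region and grows as an adherent epithelium. All cells of the series had been transfected with an shRNA plasmid, kept in hygromycin for 14 days starting 24 hours after transfection, and used as pools without cloning. The arrays described here are labelled Control-shRNA and the other 3 TRIB3-shRNA; a further label field calls the control hairpin TRIB3-Control-shRNA, and the hairpin sequences are not given in the sources used here. The cells are thus drug-selected transfectants and not the untouched parental line. The labels do not say whether the 3 arrays came from separate cultures, so each SD measures only the spread between these arrays, which may be technical.

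Each value is an RMA signal given as a log2, so a step of 1 stands for a doubling of signal. For each gene the percentile rank is the share of the 14884 named genes that read at or below it on the same array, averaged over the 3 arrays. Each feature carries its own probes, and probes differ in how strongly they bind. A rank therefore places a reading among the other readings of the array and does not order transcripts by their number. A gene is called bright when it lay above the 75th percentile of each of the 3 arrays and dim when it lay at or below the 25th percentile of each. Detection calls were not used here, so dim means a low signal and not absence. Over all genes 3340 of 14884 were bright (22.4%) and 3262 were dim (21.9%), which is the background for the counts below. The measured genes of the lists are protein-coding, and of the 11915 protein-coding genes 3218 were bright (27%) and 1949 dim (16.4%). The lines depend on the set that defines them: over all 53617 features, most of them without a gene symbol, 5707 genes would be bright and 1290 dim.

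TRIB3, the gene the hairpin of the other group was made against, read 7.37, 7.14 and 7.48 in the arrays labelled Control-shRNA (mean 7.33 ± 0.17, SD, n = 3). It read 8.43, 8.48 and 8.27 in those labelled TRIB3-shRNA. The targeted gene was thus higher where its hairpin was labelled, against the labels, and the group name is used below only as the deposited label. Its relatives TRIB1 (7.21, 7.31 and 7.12) and TRIB2 (5.44, 5.54 and 5.39) varied little over the 3 arrays. The 25th percentile of the named genes lay at 4.26, 4.29 and 4.29 in the 3 arrays, the median at 5.70, 5.69 and 5.70, and the 75th percentile at 7.24, 7.20 and 7.15. Arrays 1 and 2 were the most alike, with a median absolute difference of 0.126 per gene on the log2 scale, against 0.211 between arrays 1 and 3 and 0.216 between arrays 2 and 3. Array 3 was the one farthest from the other pair for 7466 of the 14884 genes (50.2%). Counts were therefore also made without each array: bright genes then numbered 3399, 3422 and 3580 without arrays 1, 2 and 3, and dim genes 3402, 3405 and 3432. A gene then had to pass the line on fewer arrays, so these counts could not fall below those over all 3.

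The 25 genes of highest mean signal covered means from 11.58 to 12.90. They comprised 19 protein-coding genes, 3 small RNA genes, 2 pseudogenes and 1 long non-coding RNA. EEF2, the elongation factor that moves the ribosome along mRNA, read 12.92, 12.87 and 12.92 and had the highest mean of all named genes (12.90 ± 0.03, SD, n = 3). The ribosomal protein genes among the 25 were RPL41 (12.63 ± 0.02), RPL12 (12.63 ± 0.02), RPS27 (12.59 ± 0.06), RPS28 (12.36 ± 0.06), RPL10 (12.04 ± 0.07) and RPS15 (11.84 ± 0.06). These proteins belong to the large (RPL) and small (RPS) ribosomal subunits. Protein folding was represented by CALR (12.24 ± 0.06), a calcium-binding chaperone of the endoplasmic reticulum, by HSPA9 (11.98 ± 0.17), a mitochondrial chaperone, and by PPIB (11.75 ± 0.04), a prolyl isomerase of the endoplasmic reticulum. TXN (11.83 ± 0.03) and PRDX1 (11.78 ± 0.02) encode thioredoxin and a peroxide-reducing enzyme that thioredoxin recharges. The list also held TMSB10 (12.40 ± 0.09), which binds actin monomers, and YBX1 (12.03 ± 0.02) and PTBP1 (11.83 ± 0.07), which bind RNA. COX6A1 (12.27 ± 0.01) is a subunit of cytochrome c oxidase, and OAZ1 (11.66 ± 0.10) inhibits ornithine decarboxylase.

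The remaining protein-coding members were CTSE and SCD. CTSE, an aspartic protease known from gastric epithelium and from some gastrointestinal tumours, read 11.65, 11.66 and 11.51 (mean 11.61 ± 0.08, SD, n = 3). SCD, which introduces the double bond of monounsaturated fatty acids, read 11.67, 11.65 and 11.42 (mean 11.58 ± 0.14, SD, n = 3). Both were stable over the arrays, and over the 25 genes the SD ran from 0.00945 to 0.182. Apart from the 3 small RNA genes, the non-coding members were HNRNPA1P10 (12.25 ± 0.10), ANXA2P2 (12.12 ± 0.08) and LINC00987 (12.12 ± 0.08). HNRNPA1P10 and ANXA2P2 are pseudogenes of genes with near-identical transcripts, so their signal may include that of the parent gene and is uncertain. A gene was represented by its brightest feature, and for some of the 25 the features disagreed widely. The dimmest feature of COX6A1 averaged 4.68, that of LINC00987 5.25, that of SCD 6.39 and that of RPL41 7.33. Where each feature lies in the genome was not checked. Whether the bright features of the protein-coding genes, COX6A1 among them, read related sequences such as pseudogenes was therefore not tested.

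Ribosomal protein genes as a list served as a check on how well signal tracks genes that every growing cell uses. Of 46 measured, 35 were bright (76.1%) and 0 were dim, with a median rank of 90.1. The list has 81 genes, and the 35 without a named feature were not analysed here. The lowest was RPL22 (5.60 ± 0.06, rank 48.4), followed by RPS7 (rank 56.9) and RPL31 (rank 59.3). So a gene of the cytosolic ribosome could read in the middle of the array, but none of those measured fell among the dim genes. Of 4 measured RNA polymerase II subunit genes, POLR2D (rank 85.9), POLR2H (81.0) and POLR2G (80.5) were bright and POLR2F (44.9) was not; no proteasome or chaperonin gene of that list had a named feature. Among 9 glycolysis genes 6 were bright and 0 dim, led by GPI, the isomerase of glucose 6-phosphate (10.96 ± 0.11, rank 99.6), and LDHB, a lactate dehydrogenase subunit (8.74 ± 0.16, rank 93.1). GAPDH, often used as a reference gene, read 7.09 ± 0.04 (rank 73.4), and LDHA (59.8) and TPI1 (59.4) ranked lower.

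**Figure D1:**
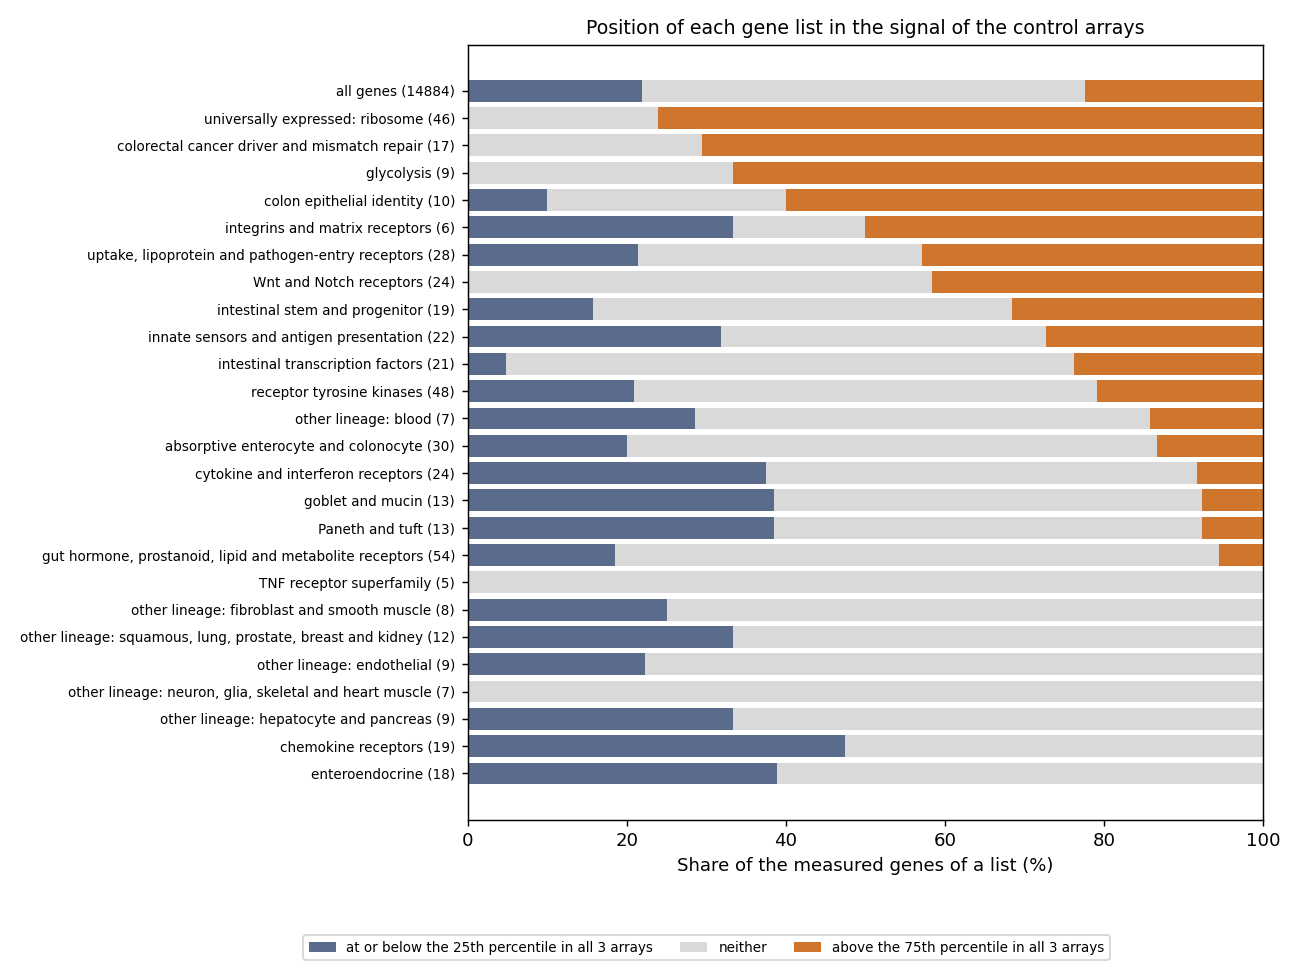
Share of the measured genes of each list with at least 5 measured members that were dim (at or below the 25th percentile in all 3 arrays, blue-grey), bright (above the 75th percentile in all 3 arrays, orange) or neither (light grey), in percent, with the number of measured genes in brackets and all 14884 genes on top. Ribosomal protein genes were bright for 76.1%, and several lists held 0 bright members, those of chemokine receptors, enteroendocrine genes and endothelial genes among them.

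The intestinal epithelium is renewed from stem cells at the crypt base, which depend on Wnt signals. Their progeny mature into absorptive cells (enterocytes or colonocytes) and into secretory goblet, enteroendocrine, Paneth and tuft cells. CDX2 is the homeobox factor that sets intestinal identity, while EPCAM and the simple keratins mark epithelium in general. Lines from colorectal tumours are known to keep parts of this programme and to lose others.

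The identity list was chosen with earlier results of these data known, so it is no independent check of what the cells are. Of its 10 measured genes 6 were bright, 1 was dim and 3 lay between, with a median rank of 82.3. EPCAM, an epithelial adhesion molecule, read 10.83, 10.92 and 10.73 (rank 99.5). KRT18, a keratin of simple epithelia, read 10.62, 10.68 and 11.11 (rank 99.5), although its other feature averaged 7.56. Its relatives KRT19 (9.13, 9.14 and 9.49, rank 96.0) and KRT8 (7.38, 7.40 and 7.49, rank 78.6) were bright as well. VIL1, which bundles actin in the brush border, read 9.02, 9.04 and 9.27 (rank 95.3). CDX2 read 7.96, 7.76 and 8.33 (rank 86.1), and its paralogue CDX1 read 6.72, 6.86 and 7.26 (rank 71.0). The adult differentiation markers of the list ranked lower than these. GPA33, a surface antigen of intestinal epithelium, read 6.0, 5.63 and 5.57 (rank 50.6). KRT20, the keratin of mature surface cells, read 4.7, 4.98 and 5.32 (rank 37.6). CEACAM5, which encodes carcinoembryonic antigen, read 3.19, 3.92 and 4.25 (rank 17.6) and was the only member with an SD over 0.5 (0.54). For CDX2, CDX1, KRT18, KRT19, VIL1, KRT8, KRT20 and CEACAM5 array 3 gave the highest of the 3 readings. CDH1, CDH17 and LGALS4 had no named feature and were not analysed here.

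Among 21 measured intestinal transcription factors 5 were bright and 1 was dim, with a median rank of 61.3. KLF5, a factor of proliferating crypt cells, read 10.15, 10.13 and 9.95 (rank 98.5). SOX9, a factor of progenitors and Paneth cells, read 9.72, 9.63 and 9.67 (rank 97.5). GATA6, which supports intestinal proliferation and lineage choice, read 9.47, 9.55 and 9.38 (rank 96.9), and the pioneer factor FOXA1 read 9.10, 9.08 and 9.08 (rank 95.3). The 3 readings of each of these 4 genes lay within 0.2 of each other, far above the 75th percentile. At the other end stood GATA4 (4.33 ± 0.10, rank 25.8), a factor of the small intestine upstream of the ileum, and HOXD13 (3.92 ± 0.08, rank 19.1), a hindgut homeobox gene. ESRP1 (rank 43.2), OVOL1 (33.9) and GRHL2 (23.1), which maintain epithelial splicing and epithelial gene expression, also ranked in the lower part of the list.

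Of 30 measured markers of mature absorptive cells 4 were bright (13.3%) and 6 dim (20%), with a median rank of 44.1; the dim share is close to that of all genes. EZR, which links the brush border membrane to actin, read 10.74, 10.73 and 10.81 (rank 99.4). PLS1, a further actin bundler of microvilli, read 8.16, 8.05 and 7.63 (rank 85.3), and the tetraspanin gene TSPAN8 read 7.63, 7.59 and 7.60 (rank 81.1). The bright members, VIL1 among them, encode structural and membrane proteins of the apical surface, but not all such genes of the list were bright. MYO1A (rank 70.8), CDHR5 (58.5), MYO7B (48.5) and CDHR2 (41.7), named after their values were seen, lay between the lines. Enzymes and surface products of mature cells lay there too, such as HPGD, a prostaglandin dehydrogenase (rank 73.4). CEACAM1 (60.1) and the carbonic anhydrase gene CA4 (45.6), also named after their values were seen, were further examples. The lowest members were as follows. SI, the sucrase-isomaltase of the brush border, read 2.45, 2.55 and 2.58 (rank 4.4). CA1, a carbonic anhydrase of colonocytes, read 2.94, 2.81 and 2.96 (rank 6.9). CEACAM6 (3.42, 2.93 and 3.32, rank 9.9) and CEACAM7 (3.30, 3.25 and 3.44, rank 10.9), adhesion genes of surface colonocytes, and TMIGD1 (rank 15.1) were dim in the same way.

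The secretory lists held few bright genes. In the goblet cell list 1 of 13 measured genes was bright and 5 were dim (median rank 45.7). The bright gene was TFF1, a trefoil peptide typical of gastric mucous cells, at 8.17, 8.40 and 8.32 (rank 89.2). AGR2, a disulfide isomerase needed for mucin folding (rank 61.1), and SPDEF, a goblet cell transcription factor (rank 57.4), lay between the lines, as did KLK1 (66.2) and FCGBP (47.0). The 5 dim members were ITLN1 (22.5), ZG16 (17.8), RETNLB (12.8), CLCA1 (4.3) and AGR3, which read 1.17, 1.49 and 2.05 (rank 0.918), while the trefoil peptide genes TFF3 (45.7) and TFF2 (42.7), named after their values were seen, lay between the lines. The mucin genes of the list had no named feature and were not analysed here. Among 18 enteroendocrine genes 0 were bright and 7 dim (median rank 25.7). INSM1, a factor of endocrine differentiation, had the highest rank (53.4), and the hormone genes NTS (1.98 ± 0.15, rank 2.0) and INSL5 (2.76 ± 0.15, rank 5.9) the lowest. In the Paneth and tuft list 1 of 13 genes was bright and 5 were dim (median rank 31.8). The bright gene was IL17RB, a receptor of interleukin 25 that tuft cells use but that is not confined to them, at 8.56, 8.37 and 8.32 (rank 90.4). DCLK1, a tuft cell kinase (rank 6.0), and HPGDS, its prostaglandin synthase (rank 4.1), were dim, as were REG1A (4.9) and LYZ (17.7).

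Stem and progenitor genes as a list were spread much like protein-coding genes in general. Of 19 measured, 6 were bright (31.6%) and 3 dim (15.8%), with a median rank of 56.6. Over all protein-coding genes 27% were bright and 16.4% dim, with a median rank of 57.6. AXIN2, a feedback inhibitor that Wnt signals induce, read 9.91, 9.88 and 9.83 (rank 98.1). RNF43, a ligase that removes Wnt receptors, read 9.40, 9.18 and 9.26 (rank 96.2), and its relative ZNRF3 read 8.16, 7.92 and 8.32 (rank 87.5). MEX3A, an RNA-binding protein of crypt cells, read 8.02, 8.07 and 8.32 (rank 87.6), with its other feature at 7.05. Together with SOX9 these were the 5 highest members, and all their readings lay above the 75th percentile; the sixth bright member, LGR5 (rank 76.9), a stem cell receptor of R-spondins, was named after its values were seen. OLFM4, a crypt base marker, read 3.65, 4.26 and 4.50 (rank 22.8), SMOC2 averaged 3.98 ± 0.05, and PROM1 4.49 ± 0.11. The surface glycoprotein genes CD24 (3.19, 3.30 and 3.49, rank 10.9) and CD44 (3.32, 3.22 and 2.89, rank 9.2) were dim. Each has a single named feature, and whether that feature reads all transcript forms was not tested.

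**Figure D2:**
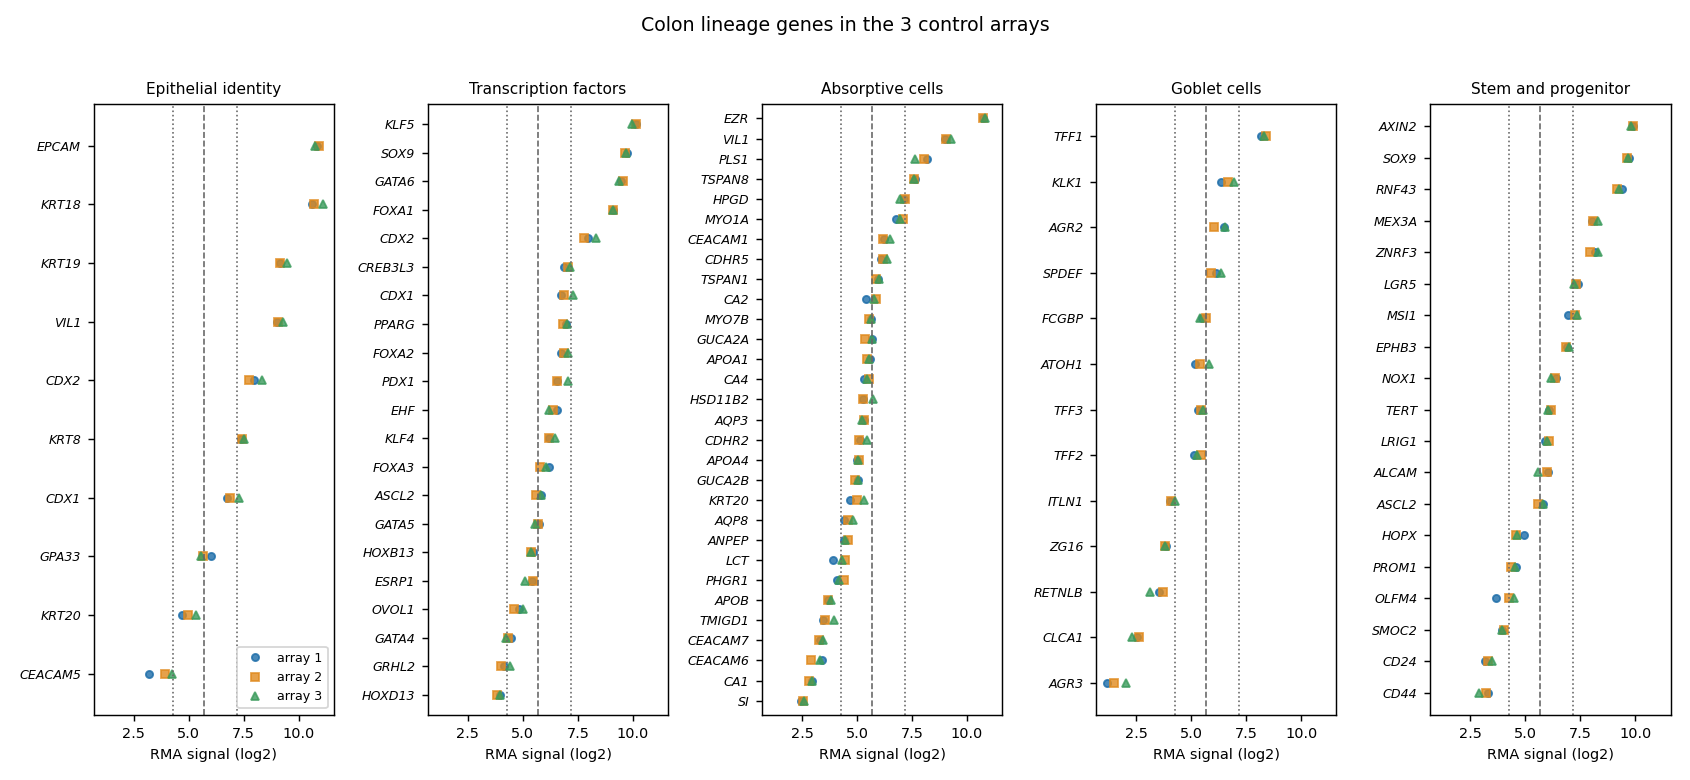
RMA signal on the log2 scale of each measured gene of 5 colon lineage lists in the 3 arrays labelled Control-shRNA (circles, squares and triangles for arrays 1, 2 and 3). Dotted lines mark the mean 25th and 75th percentiles of all named genes and the dashed line the mean median; EPCAM, KLF5, EZR and AXIN2 lie near or above 10, while SI, AGR3 and CD44 lie below the 25th percentile.

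Genes altered in colorectal cancer were also read. Of 17 measured driver and mismatch repair genes 12 were bright (70.6%) and 0 dim, with a median rank of 88.0. Over all protein-coding genes 27% were bright and 16.4% dim. The list has 31 genes, and 14 of them had no named feature and were not analysed here. Beside AXIN2, SOX9 and RNF43 the highest were SMAD4, the shared mediator of TGF-beta signals (9.64 ± 0.07, rank 97.4), and CCND1, the cyclin of G1 entry (9.47 ± 0.09, rank 96.9). The lowest were MUTYH (rank 62.0), AMER1 (54.8), APC (53.8), MSH6 (51.1) and SMAD3 (45.2). MSH6 encodes a partner in mismatch recognition, and its readings of 5.80, 5.83 and 5.65 lay near the median of each array. A signal level says nothing of mutations, and the arrays do not read them.

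Markers of other lineages were largely not bright. Over the 6 lists 1 of 52 measured genes was bright (1.9%) and 13 were dim (25%), with a median rank of 33.6. Over all genes the shares were 22.4% bright and 21.9% dim, and over the protein-coding genes 27% and 16.4%. Of 118 measured genes of the colon lineage lists 20 were bright (16.9%) and 28 dim (23.7%). The dim share was thus close to that of the colon lineage lists, and the bright share was lower. The bright marker of another lineage was CD68 (7.93 ± 0.23, rank 85.2), a lysosomal membrane protein used as a macrophage marker that other cells also make. Of the fibroblast and smooth muscle list 0 of 8 were bright and 2 dim, with DCN at 2.02 ± 0.22 (rank 2.2) and LUM at 2.89 ± 0.17 (rank 6.8), while DES had a rank of 71.2 and VIM one of 46.9. Of 9 endothelial genes 0 were bright and 2 dim, EMCN (rank 3.9) and PECAM1 (20.9). Of 7 blood genes LYZ and CD14 (rank 15.7) were dim. Of 9 hepatocyte and pancreas genes 0 were bright and 3 dim, ALB (rank 15.5), FGB (17.3) and PNLIP (20.9). Of 12 squamous, lung, prostate, breast and kidney genes 0 were bright and 4 dim, among them KRT5 (17.4), DSG3 (18.0) and FOLH1 (6.4). Of 7 neural and muscle genes 0 were bright and 0 dim, with ranks from 23.2 to 48.5. Markers of unrelated tissues thus also had ranks near the median, NKX2-1 of lung and thyroid for example 55.8.

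Surface receptors were taken in 10 lists with 232 measured genes. In all, 45 were bright (19.4%) and 53 dim (22.8%). The shares were 22.4% and 21.9% over all genes, and 27% and 16.4% over the protein-coding genes. The lists differed widely from each other in these shares, and they are given in turn.

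Receptor tyrosine kinases carry growth factor signals into the cell. Of 48 measured, 10 were bright (20.8%) and 10 dim (20.8%), with a median rank of 47.5. Both shares are close to those of all genes (22.4% bright and 21.9% dim). MET, the receptor of hepatocyte growth factor, read 10.24, 10.24 and 9.80 (rank 98.5). EPHB4 (8.92, 8.93 and 9.21, rank 94.8) and EPHA2 (8.40, 8.40 and 8.73, rank 91.1) are receptors of membrane-bound ephrins. RYK, a Wnt co-receptor, had a rank of 91.0, and DDR1, a collagen receptor, one of 88.5 with 4 features that agreed within 0.0848. The other bright members, named after their values were seen, were PTK7 (8.14 ± 0.06), LMTK2 (7.96 ± 0.04), ERBB3 (7.84 ± 0.02), EGFR (7.71 ± 0.05) and INSR (7.60 ± 0.05). All 10 lay above the 75th percentile in each array. EPHA3 (3.18 ± 0.15, rank 9.4), EPHA6 (13.4), EPHA7 (17.3), the vascular receptor FLT1 (13.3) and the stem cell factor receptor KIT (15.6) were the 5 lowest. Members of the Eph family were among both the highest and the lowest genes of this list.

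The list of Wnt, Hedgehog and Notch receptors held 0 dim genes among 24 measured, and 10 bright ones, with a median rank of 65.6. RNF43, described above, was its highest member. LRP6 (8.92, 8.96 and 8.44, rank 93.2) and LRP5 (8.69, 8.59 and 8.89, rank 92.9) are the co-receptors of Wnt ligands. LGR4, a receptor of R-spondins, which protect Wnt receptors from RNF43 and ZNRF3, read 8.90, 8.85 and 8.57 (rank 93.3). NOTCH2 read 8.18, 8.22 and 8.30 (rank 88.6). The lowest were FZD10 (28.0), FZD9 (28.2), FZD8 (32.9), NOTCH4 (42.4) and FZD1 (50.4), while FZD7, named after its values were seen, had a rank of 84.8, so the frizzled receptors were spread over the list.

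Receptors of cytokines read lower. Of 24 cytokine and interferon receptor genes 2 were bright and 9 dim (median rank 33.1). The bright members were IL17RB and IL17RA (8.10, 8.0 and 8.16, rank 87.0), subunits of interleukin 17 family receptors, and IFNGR2 (rank 75.2) and IL4R (73.3) lay close to the line. GHR (3.11 ± 0.18, rank 8.8), IL7R (8.9), PRLR (9.7), IL23R (11.6) and OSMR (12.5) were dim. Chemokine receptors guide leukocytes, and of 19 measured 0 were bright and 9 dim (median rank 25.9). The highest, CCR7, read 5.15, 5.24 and 5.47 (rank 42.8), and CXCR4 read 5.21, 5.22 and 4.67 (rank 38.2). Only a few genes of the TGF-beta and TNF receptor lists had a named feature: BAMBI, a decoy receptor of TGF-beta family ligands, was the highest of 3 in the former (rank 70.5), and RELT the highest of 5 in the latter (rank 62.5), with 0 bright and 0 dim in each.

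Of 54 receptors for gut hormones, prostanoids, lipids and metabolites 3 were bright and 10 dim (median rank 33.8). ADORA2B, the low-affinity adenosine receptor of colonic epithelium, read 8.04, 8.25 and 8.28 (rank 88.1). GPR35, an orphan-class receptor of the gut, read 7.85, 7.71 and 7.97 (rank 84.1), and F2R, the thrombin receptor, read 7.66, 7.26 and 7.21 (rank 77.8). VIPR1, the receptor of vasoactive intestinal peptide (73.5), and S1PR2, a receptor of sphingosine 1-phosphate (70.7), followed. PTGER3, a prostaglandin E2 receptor (3.18 ± 0.03, rank 9.4), FFAR2, a receptor of short-chain fatty acids (3.19 ± 0.26, rank 9.5), LPAR6 (9.9), GALR1 (10.1) and LPAR4 (11.6) were the 5 lowest.

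Of 28 measured receptors for uptake, adhesion and pathogen entry 12 were bright (42.9%) and 6 dim. BSG, a partner of lactate transporters, read 10.87, 10.79 and 11.05 (rank 99.5). FOLR1, a folate receptor, read 9.67, 9.48 and 9.95 (rank 97.6), and IGF2R, which sorts lysosomal enzymes, read 8.75, 8.90 and 8.82 (rank 93.7). ICAM1, an adhesion molecule for leukocytes and rhinoviruses, had a rank of 92.8, and OCLN, a tight junction protein, read 8.62, 8.78 and 7.89 (rank 90.1), lowest in array 3. CD36 (1.87 ± 0.11, rank 1.6), a fatty acid translocase, and the tight junction gene CLDN1 (2.84 ± 0.05, rank 6.5) were the lowest, with VLDLR (16.2), CUBN (17.5) and LRP2 (17.7). OCLN and CLDN1, both of tight junctions, thus stood far apart. Of 6 measured matrix receptors SDC1 (8.28, 8.35 and 8.82, rank 90.8), a proteoglycan of epithelia, BCAM, a laminin receptor (90.8), and SDC4 (76.1) were bright, and SDC2 (13.9) and CD44 were dim. Integrin genes had no named feature and were not analysed here.

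In the list of innate sensors and antigen presentation 6 of 22 genes were bright and 7 dim (median rank 38.5). CD47, the signal that restrains phagocytes, read 8.68, 8.58 and 8.24 (rank 91.2). MICB (8.45 ± 0.05, rank 90.7) and MICA (8.41 ± 0.06, rank 90.4) are stress-induced ligands of natural killer cells, CD276 (78.7) is a checkpoint molecule, and B2M, the light chain of class I molecules, had a rank of 82.8 with its other feature at 5.61. The dim end held the Toll-like receptor genes TLR7 (2.68 ± 0.29, rank 5.6), TLR1 (8.4), TLR10 (9.6), TLR8 (11.3) and TLR6.

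**Figure D3:**
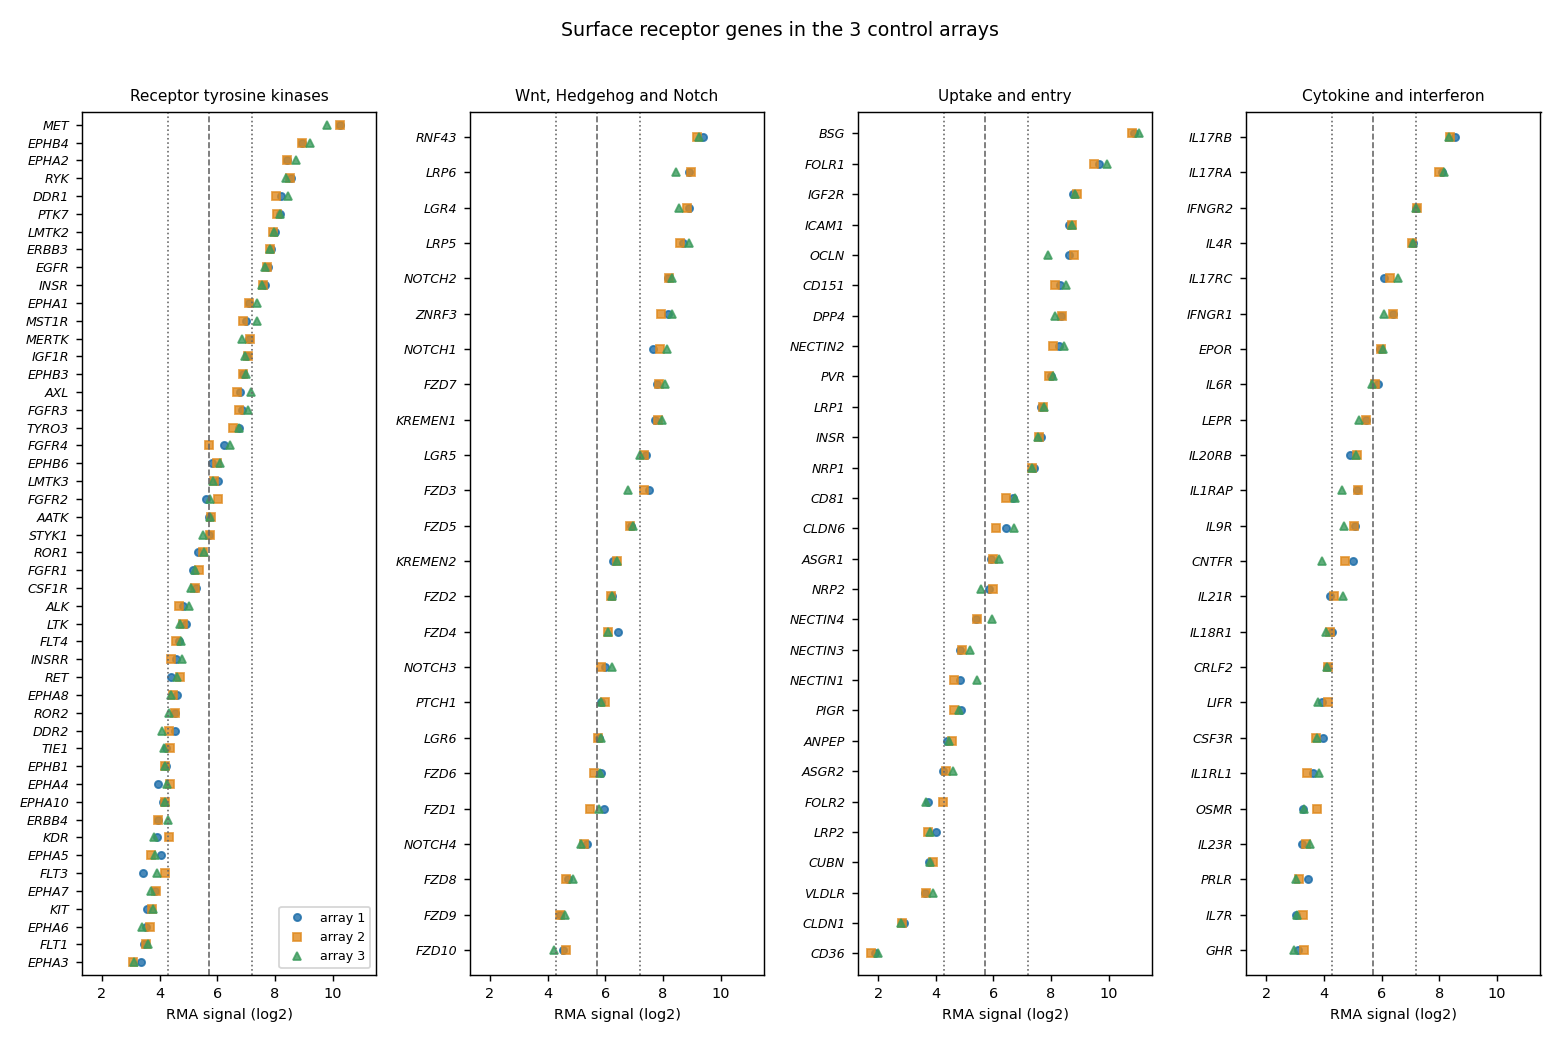
RMA signal on the log2 scale of the measured genes of 4 surface receptor lists in the 3 arrays labelled Control-shRNA, with the mean 25th and 75th percentiles (dotted) and median (dashed) of all named genes. MET, EPHB4, RNF43, BSG and FOLR1 lie far to the right of the 75th percentile, and CD36, CLDN1, GHR and EPHA3 to the left of the 25th.

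The 3262 dim genes comprised 1949 protein-coding genes (59.7%), 591 long non-coding RNAs, 577 small RNA genes and 144 pseudogenes, with 1 gene of another kind. Of the 1072 microRNA precursor genes 573 were dim (53.5%), and of the 1398 long non-coding RNA genes 591 (42.3%), against 16.4% of 11915 protein-coding genes. The lowest 149 genes, 1% of all, held 119 small RNA genes and 20 protein-coding genes. Families recognised by their symbols were counted after values had been seen and carry no test. Genes of skin and hair were largely dim: 51 of 84 keratin-associated protein genes, 10 of 17 late cornified envelope genes and 6 of 10 small proline-rich genes. Among 47 keratin genes 23 were dim and 3 bright, the bright ones being KRT18, KRT19 and KRT8. Of 16 protocadherin beta genes 9 were dim and 0 bright, and of 24 claudin genes 8 were dim and 1 bright. The families at the other end serve gene expression: of 73 mitochondrial ribosomal protein genes 46 were bright and 0 dim, of 10 SRSF splicing factor genes 9 were bright and 1 dim, and of 21 HNRNP genes 16 were bright and 1 dim. Around the 25th percentile the levels ran on without a gap. EPHB1 (4.22, 4.20 and 4.17, rank 23.6) lay just inside it, and HRH2 (4.27, 4.25 and 4.36, rank 25.2) just outside, above it in arrays 1 and 3 only.

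Promoter sequence was not used in choosing any gene, and its composition differed with the signal. RefSeq promoters of assembly GRCh38.p14, from 250 bases before to 50 bases after each gene's start, were found for 9707 of the 11915 protein-coding genes (81.5%). CpG dinucleotides are depleted from most of the genome but kept in CpG islands, where many broadly used genes start. The median CpG count in these 300 bases was 7 for genes of mean rank up to 25, 18 for ranks from 25 to 50, 26 for ranks from 50 to 75, 27 for ranks from 75 to 95 and 28 above 95. The observed over expected CpG ratio, which corrects for base composition, had medians of 0.402, 0.661, 0.832, 0.870 and 0.883 in the same order. It exceeded 0.6 in 38.6% of the promoters in the lowest band and in 94.9% of those in the highest, against 70.7% of all. Most of the rise lay below the median rank, and above it the ratio changed little. These are descriptions across genes of the same 3 arrays, and the base composition of the array probes was not analysed here.

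Short motifs were searched on both strands in the same windows. The TATA box core TATAAA was present in 18.8% of promoters in the lowest band and in 5.6% of those above rank 95, against 8.2% of all 9707. The GC box GGGCGG went the other way, from 37.3% to 75% (62.9% of all), as did the ETS core CCGGAA, from 11.6% to 33.7% (24.6% of all). The E-box CACGTG was present in 5.5% and 12.8% (9.1% of all). The CCAAT box CCAAT was present in 36.4% and 41.1% (36.2% of all), with 33.1% in the band from 25 to 50. The GC box and the ETS core contain CG and so overlap with the CpG count, as does the E-box. TATAAA holds only A and T, and the median GC content rose from 53.7% in the lowest band to 66.3% above rank 95. A match counted anywhere in the window, and the part of base composition in these differences was not tested.

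Of 79 colon lineage genes with a promoter sequence 11 were bright, with a median ratio of 0.754. The 22 dim ones had a median of 0.223. Among the colon lineage lists with both bright and dim genes, the stem and progenitor list went the other way. Its medians were 0.473 for 2 bright genes and 0.706 for 3 dim ones. The list of gut hormone, prostanoid, lipid and metabolite receptors also went the other way (0.568 for 2 bright genes, 0.722 for 9 dim ones). So did the pooled markers of other lineages (0.095 for 1 bright gene, 0.325 for 8 dim ones). The promoters below, from RefSeq, are those of the 4 colon lineage genes of highest signal that had an entry and of the 4 lowest. They are shown to let the CpG content be compared. They are written 5′ to 3′ on the strand of the gene, with each CG in capitals. EZR lies at chr6:158818186-158818485 (minus strand), KLF5 at chr13:73054726-73055025 (plus strand), GATA6 at chr18:22169339-22169638 (plus strand), RNF43 at chr17:58417485-58417784 (minus strand), CLCA1 at chr1:86468677-86468976 (plus strand), HPGDS at chr4:94342787-94343086 (minus strand), NTS at chr12:85874045-85874344 (plus strand) and AGR3 at chr7:16881934-16882233 (minus strand).
EZR: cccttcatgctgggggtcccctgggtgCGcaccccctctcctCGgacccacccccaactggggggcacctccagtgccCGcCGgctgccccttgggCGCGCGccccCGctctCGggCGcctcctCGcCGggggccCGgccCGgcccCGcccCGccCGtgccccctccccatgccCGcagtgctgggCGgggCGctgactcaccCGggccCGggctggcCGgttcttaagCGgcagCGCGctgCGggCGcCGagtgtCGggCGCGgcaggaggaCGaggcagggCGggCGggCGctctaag
KLF5: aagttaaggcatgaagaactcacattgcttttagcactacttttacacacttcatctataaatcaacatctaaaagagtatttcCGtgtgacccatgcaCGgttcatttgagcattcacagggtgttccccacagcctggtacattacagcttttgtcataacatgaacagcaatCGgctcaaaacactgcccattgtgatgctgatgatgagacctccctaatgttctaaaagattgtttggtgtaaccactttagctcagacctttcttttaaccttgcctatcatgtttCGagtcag
GATA6: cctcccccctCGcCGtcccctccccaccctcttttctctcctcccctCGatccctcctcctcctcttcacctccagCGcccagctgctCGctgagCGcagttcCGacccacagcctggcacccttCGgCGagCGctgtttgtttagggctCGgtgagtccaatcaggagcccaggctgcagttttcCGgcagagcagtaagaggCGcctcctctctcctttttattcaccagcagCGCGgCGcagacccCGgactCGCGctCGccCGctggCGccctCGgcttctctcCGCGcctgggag
RNF43: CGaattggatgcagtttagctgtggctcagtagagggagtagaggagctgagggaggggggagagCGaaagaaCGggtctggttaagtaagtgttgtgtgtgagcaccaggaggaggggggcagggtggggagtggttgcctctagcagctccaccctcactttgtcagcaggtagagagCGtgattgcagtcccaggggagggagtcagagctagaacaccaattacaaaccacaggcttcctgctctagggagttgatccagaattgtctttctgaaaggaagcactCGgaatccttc
CLCA1: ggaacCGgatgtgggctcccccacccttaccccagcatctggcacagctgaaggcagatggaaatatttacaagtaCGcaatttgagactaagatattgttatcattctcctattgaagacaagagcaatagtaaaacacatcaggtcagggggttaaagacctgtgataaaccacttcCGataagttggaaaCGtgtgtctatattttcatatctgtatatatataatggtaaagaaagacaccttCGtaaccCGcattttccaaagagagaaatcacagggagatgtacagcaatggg
HPGDS: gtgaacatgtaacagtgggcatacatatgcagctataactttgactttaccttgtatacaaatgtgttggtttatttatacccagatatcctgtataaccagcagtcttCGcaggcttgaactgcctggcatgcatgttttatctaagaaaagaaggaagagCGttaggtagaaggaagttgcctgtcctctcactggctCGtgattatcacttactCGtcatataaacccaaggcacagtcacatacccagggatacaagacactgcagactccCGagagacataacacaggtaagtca
NTS: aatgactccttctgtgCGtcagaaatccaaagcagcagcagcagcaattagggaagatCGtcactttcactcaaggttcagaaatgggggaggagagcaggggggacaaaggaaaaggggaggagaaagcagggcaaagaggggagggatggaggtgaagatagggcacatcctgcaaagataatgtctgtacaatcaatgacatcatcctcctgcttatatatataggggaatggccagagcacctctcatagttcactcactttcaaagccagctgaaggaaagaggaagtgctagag
AGR3: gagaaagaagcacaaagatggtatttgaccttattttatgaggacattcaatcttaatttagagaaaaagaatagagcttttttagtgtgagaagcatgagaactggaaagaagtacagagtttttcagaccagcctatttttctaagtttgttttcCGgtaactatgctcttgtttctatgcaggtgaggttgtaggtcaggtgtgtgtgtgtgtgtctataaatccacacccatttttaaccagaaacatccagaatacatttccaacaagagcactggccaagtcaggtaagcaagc

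EZR (mean signal 10.76) had 36 CpGs, a GC content of 80.0% and a ratio of 0.754. GATA6 (9.47) had 25 CpGs and a ratio of 0.824. These bright genes start in CpG-rich sequence, like most genes of their rank. KLF5 (10.08) had 4 CpGs, a ratio of 0.331 and a TATAAA match, and RNF43 (9.28) had 5 CpGs and a ratio of 0.25, so both were bright beside a CpG-poor window. The dim genes NTS (1.98) and AGR3 (1.57) had 2 and 1 CpGs and ratios of 0.121 and 0.0947, and AGR3 a TATAAA match. CLCA1 (2.49), with 6 CpGs and a ratio of 0.462, and HPGDS (2.45), with 5 CpGs, a ratio of 0.361 and a TATAAA match, were also dim. Their ratios lay above those of the bright KLF5 and RNF43, so among these 8 genes the ratio did not separate bright from dim. The table gives 1 start per gene, and whether HCT-8 cells start transcription of KLF5 and RNF43 there or elsewhere was not tested.

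**Figure D4:**
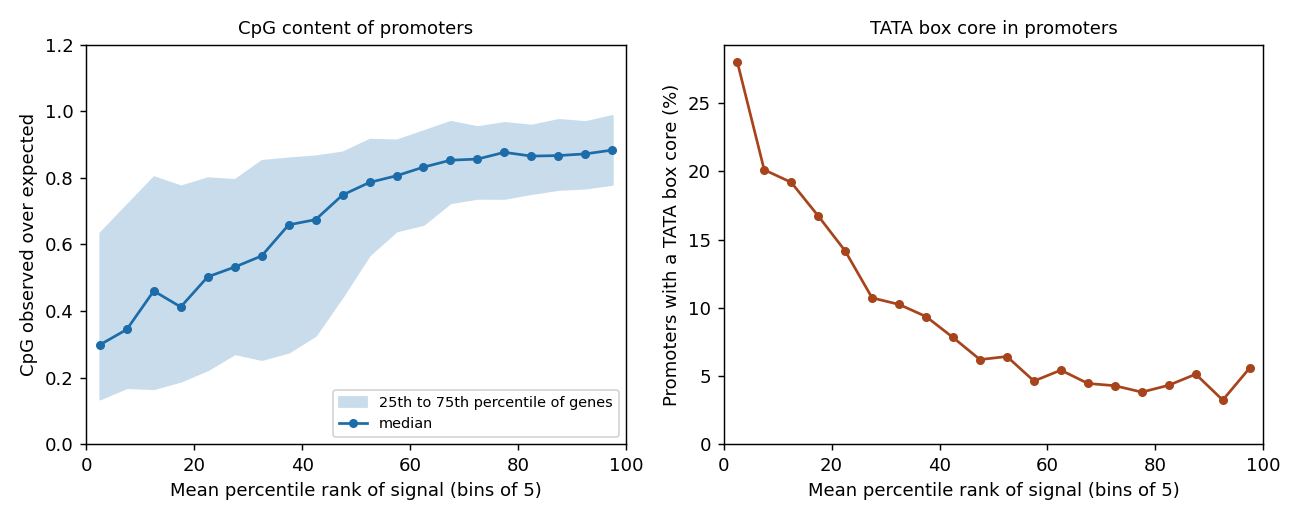
Left, observed over expected CpG ratio of the 300-base promoters of 9707 protein-coding genes against mean percentile rank of signal in bins of 5 (line, median; band, 25th to 75th percentile of genes); right, percent of those promoters with TATAAA on either strand. The ratio rises from a median of 0.299 in the lowest bin to 0.883 in the highest, and the share with TATAAA falls from 28.1% to 5.6%.

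Ranks also differed between chromosomes. Among protein-coding genes of chromosomes with at least 100 named ones, the median rank ran from 41.5 on chromosome X (428 genes) and 42.7 on chromosome 21 (147 genes) to 66.7 on chromosome 13 (202 genes) and 67.7 on chromosome 16 (522 genes). Chromosome 4 had the highest share of dim genes, 30.3% of 489, and chromosome 22 the lowest, 5.7% of 262. Copy number was not analysed here.

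The spread between the 3 arrays was small against the range of levels. The median SD over all genes was 0.161 on the log2 scale, and 251 genes (1.7%) had an SD over 0.5. With array 1 or array 2 left out that number was 485 or 496, and with array 3 left out 226. These SDs were taken over fewer arrays at the same limit, so the numbers are not directly comparable with 251. The median SD was 0.192 for mean ranks up to 25 and 0.101 above rank 99. Of the 251 variable genes 170 had a mean rank of at most 25, and 0 lay above rank 99. Among the 25 of them with a mean above the median of all genes, array 3 was the one that differed in 20, and it was the lowest in 18 of these. NCOA7, a nuclear receptor coactivator, read 6.70, 6.82 and 5.70 (SD 0.62). ERAP2, which trims peptides for class I molecules, read 7.23, 7.05 and 6.14 (SD 0.58), and NAP1L1, a histone chaperone, read 6.91, 7.03 and 5.97 (SD 0.58). In each of these genes arrays 1 and 2 lay close together and array 3 about 1 lower. ANAPC4, a subunit of the anaphase-promoting complex (SD 0.57), and DTWD1 (SD 0.57) had the same pattern, while the readings of the zinc finger gene ZNF33B (6.74, 5.92 and 5.47, SD 0.64) were all apart. The pseudogene PPIAP46 (5.81, 6.91 and 6.75, SD 0.60) was instead low in array 1.

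The departure of array 3 went along with gene span, the distance from the start to the end of the annotated gene. Protein-coding genes were put in 4 groups of equal size by span. In the shortest (median span 4.82 kb) array 3 lay 0.11 above the mean of arrays 1 and 2, as the median over genes, and in the next (16.9 kb) 0.04 above. In the longer groups it lay at -0.07 (42.8 kb) and -0.11 (134 kb), and 65.2% of the genes of the longest group were lower in array 3, against 33.1% of the shortest. Arrays 1 and 2 differed by medians of at most 0.03 in the same groups. RNA quality values are not given in the sources used here, and its part in this trend was not tested.

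**Figure D5:**
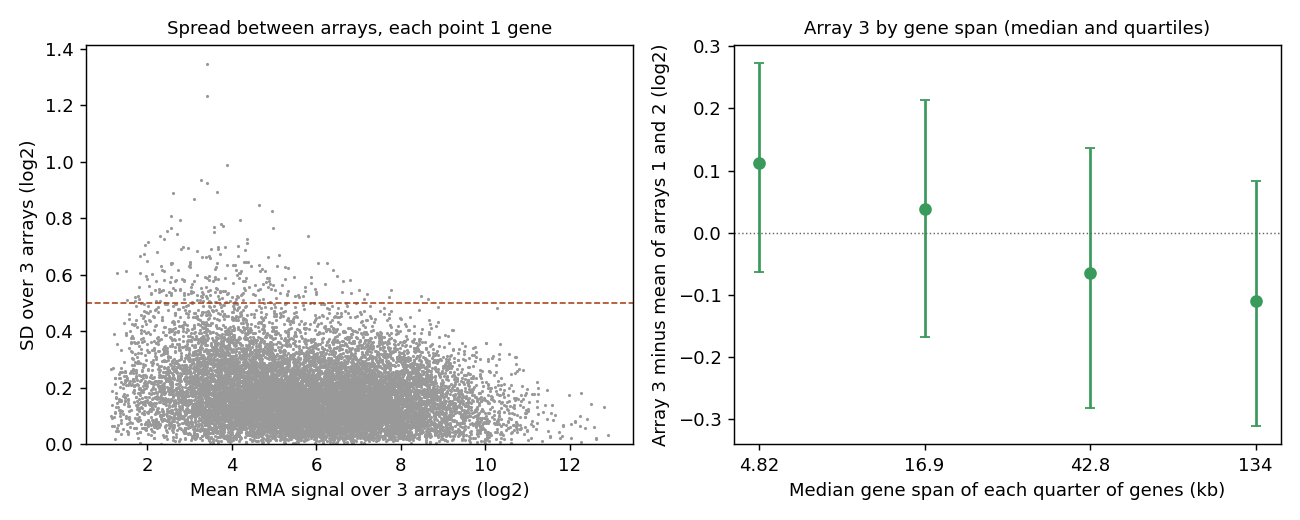
Left, SD over the 3 arrays against mean RMA signal, both on the log2 scale, for each of 14884 genes, with the SD of 0.5 dashed; right, median (point) and 25th to 75th percentile (bars) over protein-coding genes of array 3 minus the mean of arrays 1 and 2, for 4 groups of genes by span in kb. Genes with an SD over 0.5 lie mostly at low signal, and the median difference falls from 0.11 in the shortest group to -0.11 in the longest.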

How the data were processed

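Gene expression was read from the 3 arrays labelled Control-shRNA in a series of 6 single-colour Affymetrix arrays of HCT-8 RNA labelled with biotin. The deposited log2 values are RMA signals; per the submitters' processing notes the software was Expression Console 1.4.1 of Affymetrix. RMA corrects background, makes the arrays' distributions alike and summarises probes. For the genome build the authors used, the sources used here give no name. Array signals have no read depth, and the number of arrays limits the precision.

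Of 53617 features 16098 carried 1 gene symbol and 37519 none. All 16098 symbols matched RefSeq genes (GRCh38.p14), used for names, biotypes and spans. These stand for 14884 genes; each of the 779 genes with several features was read from the one with the highest mean of the 6 arrays. Percentile ranks were computed per array (Python 3.11.15, pandas 2.3.3, numpy 2.4.6). No test was run, and TRIB3 is given for both groups only as a label check. The ranks, the bright and dim calls, the SD and the quantile normalization were checked on simulated data. The planted levels lay beyond the range of the real ones, so the check covers the code and not harder cases. The CG count was checked on a short test string, and the remaining steps were not simulated.

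Genes named are the 25 brightest, the 5 highest and 5 lowest members of each list, all identity genes, the 10 largest SDs above the median (small RNAs and loci without a known function left out) and TRIB1, TRIB2 and TRIB3; others are marked. The 27 lists and their members were chosen with earlier results of these data known.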

Additional observations from a re-analysis of the deposited data

How the results depend on the processing

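Percentiles taken over all 53617 features moved the most counts: bright genes from 3340 to 5707, dim genes from 3262 to 1290, dim colon lineage genes from 28 to 10, dim surface receptors from 53 to 13, dim markers of other lineages from 13 to 4 and bright ones from 1 to 2. Dim markers of other lineages numbered 22 at the 30th percentile and 21 with means over arrays. Genes with an SD over 0.5 ranged from 226 to 496 when an array was left out and the SD taken over those remaining (251 with all). The other counts of bright, dim and variable genes stayed within 1.5 times under the alternatives run. Percentiles over all features shifted 331 of 482 ranks of named genes by over 10, taking the mean of a gene's features moved 6, and leaving out any array moved 0. Quantile normalization keeps ranks by construction. No paired analysis was possible because no test between groups was run; TRIB3 was read in both groups only as a label check.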

Other observations

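Features without a gene symbol included some of the brightest of these arrays, although their median was low. What these features read was not analysed here. Of 37519 such features 3835 (10.2%) lay above the 75th percentile of the named genes in all 3 arrays and 17136 (45.7%) at or below the 25th. Their median of 4.24 lay below the 25th percentile of the named genes. In 344 of them the mean over the 3 arrays exceeded that of the 25th brightest named gene, and in 74 it exceeded that of EEF2, so the brightest named genes are not the brightest features of the arrays.

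Of the 779 genes with more than 1 feature 27 were members of the lists or among the 25 brightest genes, and 16 of these had features over 1 apart on the log2 scale. In 6 of these 27 the brightest feature ranked above 50 and the dimmest at or below it. B2M, at ranks 82.8 and 48.7, and MST1R, at 73.3 and 47.7, were of that kind, as was COX6A1, at 99.9 and 31.9.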
